A study of Homo sapiens with 8 samples.

Results

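The regions described here are 192 long loci that carry a name of the authors' own, beginning with LXLOC, in place of an Ensembl gene ID. They were chosen from the deposited tables as the LXLOC rows that span at least 50000 bp and have a mean of at least 0.5 FPKM (fragments scaled by the length of a transcript and the depth of a library) over the 4 libraries of each of 2 cell lines. Of 23161 rows, 6281 were LXLOC rows, 624 of these reached the span, 479 of them had values and 193 passed the level, of which 1 on chromosome 17 was left out. The shortest spanned 50115 bp, the median 77294.5 bp and the longest 369218 bp. The longest LXLOC row at this level that fell short of the span was 49966 bp, the lowest line mean of a region inside was 0.5025 FPKM, and the highest of a long row outside was 0.4975 FPKM.

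The cells were HepG2 and LM3, both labelled as hepatocellular carcinoma lines, treated with JQ1 or with DMSO as the vehicle. Each line was thus sampled in a vehicle group and a JQ1 group, which makes 4 groups of 2 libraries, named replicates 1 and 2. No genotype change, dose or time of treatment is given in the labels, and each line is a single established line. Since no label says that replicates came from separate cultures, the p-values below rest on the spread of these libraries alone, and it may be technical.

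JQ1 binds the bromodomains of BET proteins and displaces them from acetylated chromatin, and transcription that leans on dense enhancer clusters is known to be sensitive to this. Long noncoding transcripts of great length are often the unspliced or partly spliced output of a host gene, an antisense partner of a coding gene, or a precursor from which microRNAs and other small RNAs are cut. Assembled loci of this kind can also be made from reads in the introns of a longer gene.

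The microRNA hairpins that lie on the same strand inside these regions show what some of them could carry. RefSeq (GRCh38.p14) places 21 hairpins in 17 of the 192 regions, with 30 mature microRNAs recorded. The mature sequences below are a selection, from regions described in the results, written 5′ to 3′ with the seed (bases 2 to 8) in capitals. The first pair lies in LXLOC_015193 and shares a seed, miR-29b-3p lies in LXLOC_052022, miR-582-5p in LXLOC_045103, miR-3197 in LXLOC_035363, miR-3157-5p in LXLOC_007487, and miR-421 and miR-374b-5p in LXLOC_060233. The last pair, which also shares a seed, lies not inside LXLOC_059946 but 3031 and 2173 bp past its 3′ end. The mature microRNAs themselves were not measured in these libraries.
hsa-miR-15a-5p: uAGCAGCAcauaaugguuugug
hsa-miR-16-5p: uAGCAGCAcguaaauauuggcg
hsa-miR-29b-3p: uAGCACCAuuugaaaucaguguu
hsa-miR-582-5p: uUACAGUUguucaaccaguuacu
hsa-miR-3197: gGAGGCGCaggcucggaaaggcg
hsa-miR-3157-5p: uUCAGCCAggcuagugcagucu
hsa-miR-421: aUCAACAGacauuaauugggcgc
hsa-miR-374b-5p: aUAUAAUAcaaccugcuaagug
hsa-miR-221-3p: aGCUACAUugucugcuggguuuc
hsa-miR-222-3p: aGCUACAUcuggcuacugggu

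For 49 regions the 5′ end fell inside a RefSeq promoter window of the same strand (250 bases before to 50 after a gene's start), which gave 51 windows. The 4 windows printed here belong to regions that fell in both lines (FIRRE for LXLOC_060625, CSRP1-AS1 for LXLOC_002225), rose in HepG2 (DLEU2 for LXLOC_015193) or moved in opposite directions (ENTPD1-AS1 for LXLOC_007487). Capitals mark matches on either strand to the GC box (GGGCGG), the E-box (CACGTG) or the TATA box (TATAAA).
FIRRE, chrX:131830594-131830893, minus strand: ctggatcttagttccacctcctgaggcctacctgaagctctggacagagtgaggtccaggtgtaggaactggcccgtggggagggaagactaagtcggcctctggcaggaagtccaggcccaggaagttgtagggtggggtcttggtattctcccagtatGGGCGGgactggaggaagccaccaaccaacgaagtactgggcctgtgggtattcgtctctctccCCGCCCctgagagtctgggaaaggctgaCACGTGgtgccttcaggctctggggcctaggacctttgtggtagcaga
CSRP1-AS1, chr1:201506963-201507262, plus strand: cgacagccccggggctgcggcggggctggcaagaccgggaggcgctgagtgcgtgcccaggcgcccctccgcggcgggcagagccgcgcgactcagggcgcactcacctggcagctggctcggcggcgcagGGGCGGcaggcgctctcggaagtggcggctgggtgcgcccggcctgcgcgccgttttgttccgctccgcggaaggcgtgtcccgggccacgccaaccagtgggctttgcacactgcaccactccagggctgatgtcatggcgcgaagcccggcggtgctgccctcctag
DLEU2, chr13:50081992-50082291, minus strand: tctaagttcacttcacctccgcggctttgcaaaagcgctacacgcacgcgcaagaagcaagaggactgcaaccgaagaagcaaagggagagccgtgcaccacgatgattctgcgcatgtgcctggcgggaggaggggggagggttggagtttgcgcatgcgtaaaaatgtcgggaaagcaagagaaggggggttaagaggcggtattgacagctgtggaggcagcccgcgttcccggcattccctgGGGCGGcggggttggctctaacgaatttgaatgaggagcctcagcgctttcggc
ENTPD1-AS1, chr10:96090186-96090485, minus strand: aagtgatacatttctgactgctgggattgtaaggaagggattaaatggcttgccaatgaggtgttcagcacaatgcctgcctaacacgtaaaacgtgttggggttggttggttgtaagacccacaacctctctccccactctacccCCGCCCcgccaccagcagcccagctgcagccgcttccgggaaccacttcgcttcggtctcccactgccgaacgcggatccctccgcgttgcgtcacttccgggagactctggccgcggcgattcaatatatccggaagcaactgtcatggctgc

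The GC box GGGCGG was found on either strand in 38 of the 51 windows (74.5%) and in 45% of all 35116 RefSeq windows. The CCAAT box (CCAAT, either strand) was in 26 windows (51.0%, against 34.6% of all), the E-box CACGTG in 6 (11.8%, against 7.26%) and the TATA box TATAAA in 3 (5.88%, against 11.5%). The median window held 28 CpG dinucleotides, against 14 over all windows. FIRRE's window held 7 CpG, 1 E-box and 2 GC boxes, whereas that of CSRP1-AS1 held 37 CpG and 1 GC box. The 51 windows belong to regions chosen on their level, whereas the 35116 were not, and the part of this choice in the shares was not tested. LXLOC_004608 entered with the same window under the names RGS5 and LOC127814295, and LXLOC_006270 with overlapping windows of PCGF5. These matches describe letters in a window, and no binding was measured.

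Against the GENCODE release 29 annotation, many of the regions were not outside known genes. Of the 192, 86 shared bases with a protein-coding gene on the same strand, and 72 of these had at least 50% of their span inside one. An annotated lncRNA on the same strand shared bases with 82 regions and covered at least 50% of the span of 49. Coding genes lay on the opposite strand of 67 regions. The 5′ end lay within 1000 bp of an annotated same-strand start for 69 regions, and 24 stood head to head with a coding gene whose start was within 1000 bp. Of the 185 regions on sequences that the annotation holds, 26 shared no base with a coding gene of either strand or with a same-strand lncRNA, and the other 7 regions lay on patch, alternate or unplaced sequences outside it. "LXLOC" therefore names a row here, not an absence of annotation. On the same strand, 121 of the 192 overlapped another locus with values by at least 0.5 of the shorter, so reads may have been shared or split among them, and no source used here gives the strand setting of the counting.

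No source used here gives read totals, so the depth is unknown and counting error per region cannot be stated. The FPKM of all loci summed to between 29369 and 35742 per library. The 192 regions held 4.36% and 4.16% of it in the HepG2 vehicle libraries and 3.51% and 3.50% with JQ1, and 9.04% and 8.97% in the LM3 vehicle libraries and 7.46% and 7.01% with JQ1. Ribosomal RNA and mitochondrial loci took a larger share with JQ1 than with vehicle, from 15.3% and 15.9% to 17.1% and 18.1% in HepG2 and from 18.9% and 19.6% to 21.2% and 22.8% in LM3 (a fit rescaled for this is given with the counts). As a check of the label, 7 of 10 listed hepatocyte lncRNAs had values, and they summed to 2050 to 2260 FPKM in the HepG2 libraries and to 311 to 349 FPKM in LM3. Nearly all of that was H19, and no other of these lncRNAs was above 6.84 FPKM in HepG2 or 1.41 FPKM in LM3. The 4 blood-cell lncRNAs with values summed to at most 1.76 FPKM and the 4 mesenchymal ones to at most 0.40 FPKM in any library, with none at 0 in all libraries of a line.

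With vehicle, the regions differed widely in level, and a single locus stood far above the rest in LM3. LXLOC_054641 (chr8:127140169-127229306, minus strand), of which 98.0% lies in the lncRNA gene CASC19 of the 8q24 region, stood at 195 and 196 FPKM in HepG2 and at 1610 and 1683 FPKM in LM3. LXLOC_053351 (chr8:127766082-128101256, plus strand), of which 91.5% lies in PVT1, the lncRNA gene beside MYC, stood at 95.1 and 92.6 FPKM in HepG2 and 142 and 146 FPKM in LM3. LXLOC_001560 (chr1:149400421-149544078, plus strand), which overlaps the duplicated gene NBPF19, stood at 71.0 and 71.0 FPKM in HepG2 and 107 and 106 FPKM in LM3. The other 2 of the 5 most abundant regions were LXLOC_058171 on an unplaced sequence (50.3 and 47.4 FPKM in HepG2, 52.4 and 54.8 FPKM in LM3) and LXLOC_035052. The latter lies in the ribosomal DNA array of chromosome 21, and its vehicle libraries in HepG2 stood apart from each other, at 154 and 74.0 FPKM. Over the 8 libraries the median region had a mean of 2.69 FPKM, and 17 regions were above 10 FPKM in both lines.

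Levels in the 2 lines come from separate tables, which may have been scaled separately, and are set side by side without a test. LM3 was above HepG2 with vehicle in 138 of the 192 regions, with a median ratio of 1.35, and the median ratio over all 5035 loci at 0.5 FPKM in both tables was 1.21. The largest ratios in favour of LM3 were those of 2 overlapping ribosomal DNA regions, LXLOC_035060 (0.94 and 0.96 FPKM in HepG2, 49.9 and 37.2 FPKM in LM3) and LXLOC_035064 (0.83 and 0.98 FPKM, 27.7 and 30.7 FPKM). LXLOC_054641 followed at 8.44 times, and then LXLOC_043314 (chr5:23951270-24206640, plus strand), over C5orf17, at 2.96 and 2.62 FPKM in HepG2 and 12.6 and 12.5 FPKM in LM3. The reverse was seen for LXLOC_007904 (chr11:3514591-3584418, plus strand), at 31.3 and 31.1 FPKM in HepG2 and 0.92 and 1.54 FPKM in LM3. It was also seen for LXLOC_047956 (3.09 times higher in HepG2), for LXLOC_047420 in PDE7B (3.08 times) and for LXLOC_045103 in PDE4D (2.86 times). The last 2 lie in genes of cyclic nucleotide phosphodiesterases.

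**Figure D1:**
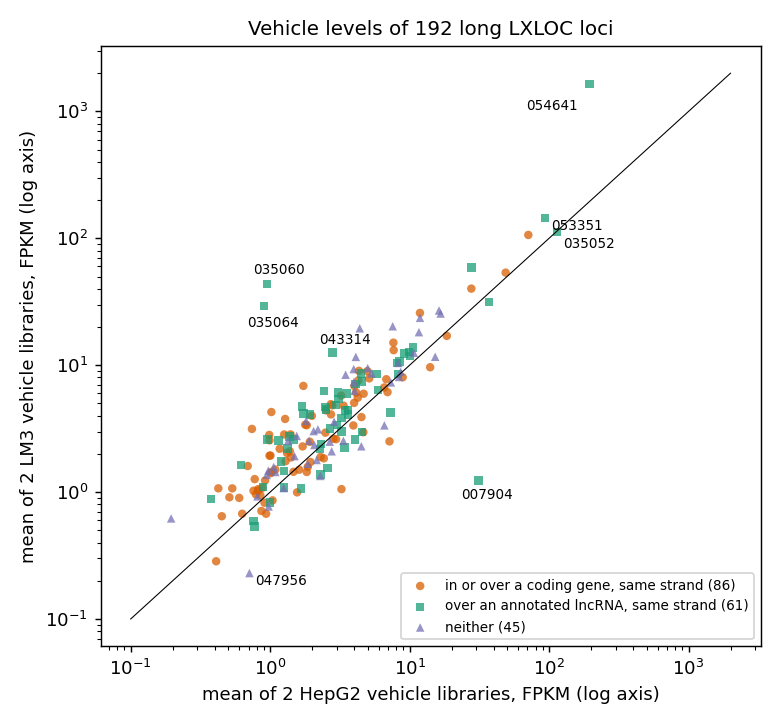
Mean FPKM of 192 long LXLOC loci in the 2 vehicle libraries of HepG2 (horizontal, log axis) and of LM3 (vertical, log axis), with the line of equal values; colours and shapes give the same-strand annotation. Most points lie near or above the line, with LXLOC_035060 and LXLOC_035064 far above it and LXLOC_007904 far below it.

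JQ1 lowered more of the long regions than it raised in both lines. In HepG2, 45 of the 192 (23.4%) were called lower and 20 (10.4%) higher at an adjusted p under 0.05 in limma, where the background over all 5906 loci tested was 14.2% lower and 10.8% higher. In LM3, 54 (28.1%) were called lower and 15 (7.81%) higher, where the background over 6474 loci was 15.4% lower and 7.92% higher. The higher share was thus near the background in both lines, and the lower share was above it. The median log2 fold change of the regions was -0.036 in HepG2 and -0.146 in LM3, against -0.006 and -0.084 over all loci tested. Among the regions called lower, 11 in HepG2 and 14 in LM3 fell by at least 1 on the log2(FPKM + 0.5) scale, the scale of every fold change given here, and 5 and 3 of those called higher rose by as much. Over all loci tested, 160 of 5906 fell and 89 rose by as much in HepG2, and 267 of 6474 fell and 88 rose in LM3.

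Shorter and annotated loci gave other shares. These loci, like the background, had to reach 0.5 FPKM in the tested line only, the long regions in both lines. Of the LXLOC loci under 50 kb, 13.1% were lower and 12.2% higher in HepG2, and 14.4% and 9.18% in LM3. Of the Ensembl loci of at least 50 kb, 15.5% were lower and 4.71% higher in HepG2, and 17.3% and 3.02% in LM3. Within the long regions, the 28 longest, of at least 150 kb, had 9 called lower in HepG2 (32.1%) and 12 in LM3 (42.9%). The 73 of 75 to 150 kb had 18 (24.7%) and 19 (26.0%), and the 91 shortest, under 75 kb, had 18 (19.8%) and 23 (25.3%). Pearson's r between log10 of the span and the fold change was -0.075 in HepG2 and -0.077 in LM3. Regions mostly inside coding genes of the same strand (72) had 16 lower and 5 higher in HepG2 and 22 and 4 in LM3, and the 106 that share no base with such a gene had 25 and 13, and 29 and 10. The 26 regions that overlap no coding gene or same-strand lncRNA of GENCODE release 29 had 5 lower and 5 higher in HepG2 and 6 and 5 in LM3. Some of them still share bases with a deposited Ensembl row of the same strand. For LXLOC_032517, lower in both lines, that of LINC01885 covers 99.8% of the span. These shares are descriptions, and no test of a class against the others was made. The regions were chosen on their level, so their median of 2.37 FPKM in HepG2 and 2.88 FPKM in LM3 stands beside 1.16 and 1.23 FPKM over all loci tested as a description, and the part of the level in the shares was not tested.

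Most calls were lost when 1 library was left out. In limma, leaving out JQ1 replicate 1 or JQ1 replicate 2 of HepG2 left 0 regions called there, with 65 and 73 at an unadjusted p under 0.05, and leaving out vehicle replicate 1 or 2 left 19 and 21 lower and 11 and 9 higher. In LM3, leaving out any 1 of the 4 libraries left 0 called, with 64 to 93 at an unadjusted p under 0.05. Quantile normalization gave 43 lower and 22 higher in LM3. With the libraries rescaled outside ribosomal RNA and mitochondrial loci, 52 regions were lower and 18 higher in each line. The shares of all loci called, or at an unadjusted p under 0.05, were worked out for the main fits only. Whether the lower share stays above the background under other settings was not tested.

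**Figure D2:**
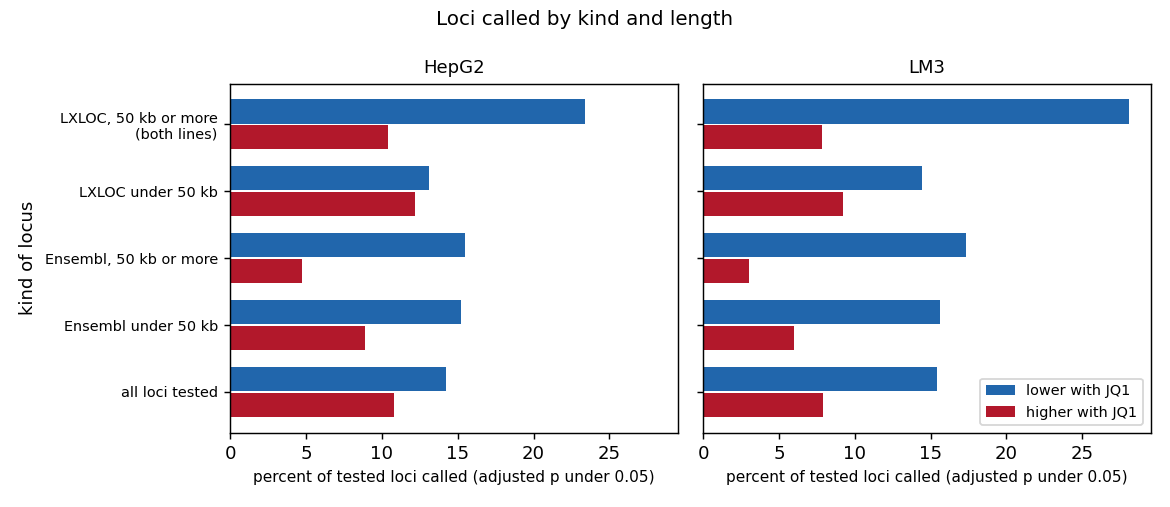
Percent of tested loci called lower (blue) or higher (red) with JQ1 in HepG2 (left) and LM3 (right), by kind and length of locus. The long LXLOC loci have the longest blue bars, at 23.4% and 28.1%.

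The lines share no control library, and the falls called in them were largely of the same regions. Of the 45 regions lower in HepG2, 38 were also lower in LM3 (84.4% of the HepG2 calls and 70.4% of the LM3 calls), and 8 regions were higher in both (40.0% and 53.3%). Only 1 region was called in opposite directions, and 105 were called in neither line. The sign of the fold change was shared by 160 of the 192. Across the regions, Pearson's r between the fold changes of the lines was 0.851, a description over 192 regions that share 8 libraries and are not independent. The shared calls, shared signs and r were not worked out over all loci. Whether they are particular to the long regions was not tested.

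**Figure D3:**
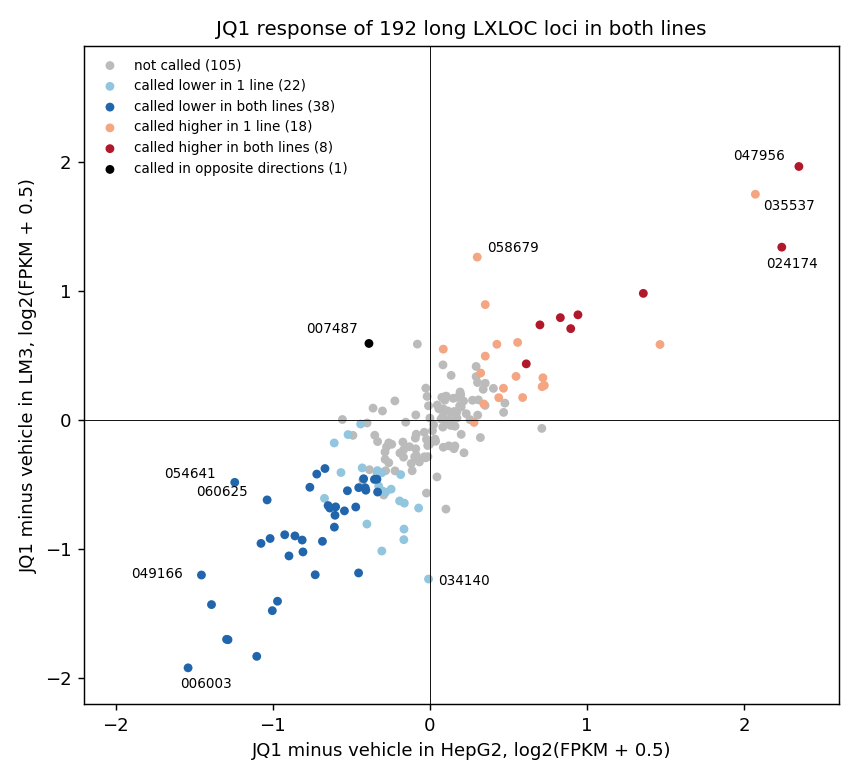
Log2 change with JQ1 on the log2(FPKM + 0.5) scale of each of 192 long LXLOC loci in HepG2 (horizontal) and LM3 (vertical); colours give the calls and labels are LXLOC numbers. Regions called in both lines lie in the lower left (38) and upper right (8), and LXLOC_007487 stands alone among the called regions at the upper left.

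On the log2(FPKM + 0.5) scale the deepest fall called in both lines was that of LXLOC_006003 (chr10:67986539-68101695, plus strand), which has 77.1% of its span opposite HERC4, a ubiquitin ligase gene. It stood at 2.20 and 1.95 FPKM with vehicle and 0.37 and 0.40 FPKM with JQ1 in HepG2, and at 2.41 and 2.29 FPKM against 0.22 and 0.29 FPKM in LM3. The groups were far apart in each line, and the log2 fold changes were -1.54 (SE 0.0998, adjusted p = 0.0055) and -1.92 (SE 0.106, adjusted p = 0.00538). LXLOC_034129 (chr20:51346951-51410454, plus strand), with 37.0% of its span opposite the transcription factor gene NFATC2, went from 1.1 and 1.02 FPKM to 0.15 and 0.13 FPKM in HepG2 and from 1.55 and 1.61 FPKM to 0.14 and 0.14 FPKM in LM3. Its log2 fold changes were -1.28 and -1.70. The JQ1 libraries of both lines were thus below the pseudocount of 0.5, where this scale understates a change, and as a ratio of mean FPKM this fall was deeper than that of LXLOC_006003 in both lines. Both regions, with every JQ1 library below 0.5 FPKM, reached that level through their vehicle libraries, and ratios over such low values are uncertain. LXLOC_035437 (chr21:45002357-45058421, plus strand), which overlaps the lncRNA PICSAR of the other strand at its 5′ end, was at 2.20 FPKM in both HepG2 vehicle libraries and at 0.53 FPKM in both JQ1 libraries, and went from 3.10 and 3.14 FPKM to 0.86 and 0.83 FPKM in LM3. It fell by 1.39 and 1.43 on the log2 scale.

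Other deep falls were of regions in or partly over long genes. LXLOC_049166 (chr6:165898723-166045676, minus strand) has 60.8% of its span in PDE10A, a cyclic nucleotide phosphodiesterase gene, and begins 57598 bp from the nearest annotated same-strand start, that of PDE10A. It went from 28.4 and 26.9 FPKM to 9.54 and 10.04 FPKM in HepG2 (log2 fold change -1.45, SE 0.0734, adjusted p = 0.00347) and from 39.2 and 41.1 FPKM to 18.1 and 16.3 FPKM in LM3 (-1.199, SE 0.0942, adjusted p = 0.00758). LXLOC_053754 (chr8:19636053-19726338, minus strand) lies in CSGALNACT1, an enzyme gene of chondroitin sulfate synthesis. Its values were 3.48 and 3.24 FPKM against 1.01 and 1.14 FPKM in HepG2 and 4.68 and 4.91 FPKM against 1.21 and 1.06 FPKM in LM3, falls of 1.29 and 1.70 on the log2 scale. LXLOC_000724 (chr1:44043497-44115149, plus strand), inside the lncRNA AL139220.2, went from 8.42 and 8.48 FPKM to 3.63 and 3.71 FPKM in HepG2 and from 10.2 and 11.1 FPKM to 2.68 and 2.6 FPKM in LM3, with log2 fold changes of -1.10 and -1.83. The phosphodiesterase regions LXLOC_045103 in PDE4D and LXLOC_047420 in PDE7B fell in both lines as well, by 0.86 and 0.90 and by 0.53 and 0.55 on the log2 scale. LXLOC_047420 begins at the RefSeq start of PDE7B and was the lower of these, at 3.44 and 3.05 FPKM against 2.11 and 2.09 FPKM in HepG2 and 1.05 and 1.06 FPKM against 0.58 and 0.55 FPKM in LM3. Its calls in both lines were lost without the filter on low values, and the LM3 call also in a fit with the replicate number as a block.

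**Figure D4:**
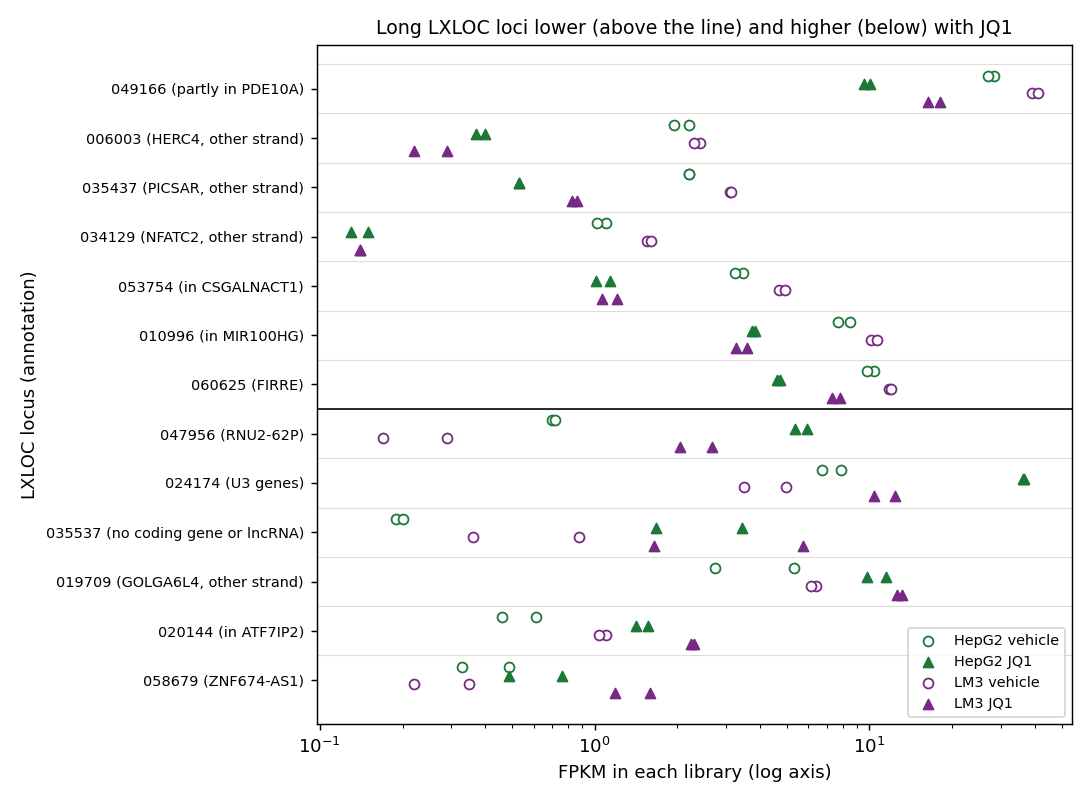
FPKM (log axis) of 13 long LXLOC loci in every library, with open circles for vehicle and filled triangles for JQ1, in green for HepG2 and purple for LM3. The 7 loci above the line are lower with JQ1 in both lines without overlap, and among the 6 below it LXLOC_035537 and LXLOC_047956 show the widest gaps on this axis in HepG2. LXLOC_058679 is labelled by the lncRNA at its 5′ end, and 46.4% of its span lies in the coding gene CHST7.

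Several falls lay inside lncRNA genes, whose own Ensembl rows give a second value at the same place. LXLOC_060625 (chrX:131688779-131830684, minus strand) begins 41 bp before the RefSeq start of FIRRE, a lncRNA known for its part in nuclear organisation. It stood at 10.4 and 9.78 FPKM with vehicle and 4.60 and 4.71 FPKM with JQ1 in HepG2, and at 11.8 and 11.97 FPKM against 7.84 and 7.30 FPKM in LM3, with log2 fold changes of -1.04 and -0.62. The Ensembl row of FIRRE itself changed by -0.51 (adjusted p = 0.0146) and -0.17 (adjusted p = 0.203). LXLOC_010996 (chr11:122282312-122381016, minus strand), inside MIR100HG, a microRNA host gene whose hairpins lie outside the region, went from 8.53 and 7.67 FPKM to 3.74 and 3.83 FPKM in HepG2 and from 10.1 and 10.6 FPKM to 3.57 and 3.27 FPKM in LM3. Its log2 fold changes of -1.003 and -1.48 stood beside -0.88 and -1.25 for the MIR100HG row.

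The 2 abundant regions of 8q24 also fell. LXLOC_053351 went to 58.4 and 61.0 FPKM in HepG2 and 93.1 and 89.0 FPKM in LM3, falls of 0.65 and 0.66 on the log2 scale (adjusted p = 0.0091 and 0.0121), and the PVT1 row fell by 0.68 and 0.71. LXLOC_054641 went to 79.4 and 85.1 FPKM in HepG2 (log2 fold change -1.24, SE 0.0734, adjusted p = 0.00487) and to 1235 and 1127 FPKM in LM3 (-0.48, SE 0.0836, adjusted p = 0.0252), and the CASC19 row fell by 1.24 and 0.39. The LM3 call for LXLOC_054641 was lost under quantile normalization and without the filter on low values. In all, 80 regions had an Ensembl row on the same strand, and the signs were shared by 50 of 71 tested pairs in HepG2 and 50 of 73 in LM3. Reads may have been shared between such rows, so the 2 values are not independent.

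On the log2(FPKM + 0.5) scale, the 2 largest rises called in each line were of regions that hold small nuclear or nucleolar RNA genes. As a ratio of mean FPKM, LXLOC_035537 rose further than both in HepG2, and LXLOC_058679 further than LXLOC_024174 in LM3. The vehicle libraries of LXLOC_035537 in HepG2, and of LXLOC_047956 and LXLOC_058679 in LM3, were all below 0.5 FPKM. These regions thus reached that level there through the JQ1 libraries, in which they are high, and ratios over such low values are uncertain. LXLOC_047956 (chr6:27048126-27111305, minus strand) overlaps no coding gene, and holds RNU2-62P, a pseudogene of the U2 spliceosomal RNA, on its strand. It stood at 0.70 and 0.72 FPKM with vehicle and 5.38 and 5.95 FPKM with JQ1 in HepG2, and at 0.17 and 0.29 FPKM against 2.67 and 2.05 FPKM in LM3. The log2 fold changes were 2.35 (SE 0.0912, adjusted p = 0.00258) and 1.97 (SE 0.163, adjusted p = 0.00861). LXLOC_024174 (chr17:19062831-19190245, minus strand) holds SNORD3B-2, SNORD3D and SNORD3C on its strand, genes of the U3 small nucleolar RNA that acts in ribosomal RNA processing, and its 5′ end at 19190245 is the end coordinate of SNORD3C. It rose from 7.87 and 6.74 FPKM to 36.05 and 36.44 FPKM in HepG2 and from 3.50 and 4.98 FPKM to 10.4 and 12.4 FPKM in LM3, by 2.24 (SE 0.0949, adjusted p = 0.00262) and 1.34 (SE 0.191, adjusted p = 0.0178) on the log2 scale. These genes are near-identical copies, so the placing of their reads is uncertain. Of the 19 regions that hold a small RNA gene on their strand, 2 rose and 6 fell in each line, where the background was 10.8% higher and 14.2% lower in HepG2 and 7.92% and 15.4% in LM3.

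LXLOC_035537 (chr21:12856540-12911817, minus strand), with no annotated coding gene or lncRNA, rose in HepG2 from 0.19 and 0.20 FPKM to 1.67 and 3.43 FPKM (log2 fold change 2.07, SE 0.298, adjusted p = 0.0153). Its LM3 values were 0.36 and 0.88 FPKM with vehicle and 1.65 and 5.75 FPKM with JQ1, and the JQ1 libraries differed so much that it was not called there (1.75, SE 0.577, adjusted p = 0.0987). LXLOC_019709 (chr15:84199311-84425623, minus strand), which spans the duplicated gene GOLGA6L4 of the other strand, rose in both lines, from 2.74 and 5.31 FPKM to 11.5 and 9.80 FPKM in HepG2 and from 6.41 and 6.14 FPKM to 12.6 and 13.2 FPKM in LM3. Its HepG2 call was lost under quantile normalization, under rescaling outside ribosomal RNA and mitochondrial loci and without the filter on low values. LXLOC_020144 (chr16:10362035-10470167, plus strand) lies in ATF7IP2 and rose by 0.94 and 0.82 on the log2 scale, from 0.61 and 0.46 FPKM to 1.41 and 1.56 FPKM in HepG2 and from 1.1 and 1.04 FPKM to 2.29 and 2.24 FPKM in LM3. In the ribosomal DNA array, LXLOC_035064 rose in HepG2 from 0.83 and 0.98 FPKM to 2.82 and 4.01 FPKM (1.46, SE 0.176, adjusted p = 0.0114). Its LM3 change was 0.59 (adjusted p = 0.081), and the 2 other regions of the array were called in neither line. The Ensembl row FP236383.1, which covers 100% of the region on the same strand, went the other way, by -0.745 (adjusted p = 0.0424) in HepG2 and -0.428 (adjusted p = 0.0469) in LM3. LXLOC_001560 was called higher in HepG2 at 86.3 and 86.4 FPKM (0.28, SE 0.0647, adjusted p = 0.041), and it was 105 and 105 FPKM in LM3. That call was lost under quantile normalization, in the rescaled fit, without limma's trend and robust fitting, without the filter on low values and without overlapping loci.

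Of the 17 regions with a hairpin, 6 were called lower (35.3%) and 2 higher (11.8%) in HepG2, and 6 lower (35.3%) and 1 higher (5.88%) in LM3. The background was 14.2% lower and 10.8% higher in HepG2 and 15.4% and 7.92% in LM3, and no test of these regions against the others was made. LXLOC_015193 (chr13:49974773-50082041, minus strand), over DLEU2 with miR-15a and miR-16-1, began exactly at a RefSeq DLEU2 start. It rose in HepG2 from 3.65 and 3.43 FPKM to 6.09 and 6.29 FPKM (log2 fold change 0.73, adjusted p = 0.00977) and stood at 5.78 and 6.2 FPKM against 7.62 and 7.03 FPKM in LM3 (0.27, adjusted p = 0.104). The Ensembl row of DLEU2 changed by 0.23 and 0.15 and was called in neither line. LXLOC_052022 (chr7:130876809-131110176, minus strand), which covers LINC-PINT and the miR-29b-1 hairpin and stands head to head with MKLN1, fell in both. Its values were 10.1 and 9.72 FPKM against 6.22 and 6.14 FPKM in HepG2, and 12.5 and 12.9 FPKM against 8.30 and 7.20 FPKM in LM3. The Ensembl row of LINC-PINT that covers 73.4% of the region changed by -0.32 and -0.50 and was called in neither line. That of AC016831.4, which covers 0.856% of it, was called lower in both, at -0.53 and -0.44.

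LXLOC_045103, with miR-582, was at 7.64 and 6.70 FPKM against 3.78 and 3.66 FPKM in HepG2 and at 2.29 and 2.73 FPKM against 1.2 and 1.03 FPKM in LM3. LXLOC_035363 (chr21:41120607-41198706, plus strand), partly inside the secretase gene BACE2 and holding miR-3197, fell from 18.7 and 18.2 FPKM to 9.49 and 9.52 FPKM in HepG2 and from 17.01 and 17.05 FPKM to 9.30 and 8.67 FPKM in LM3. The fall was close to the same in both lines, at -0.92 and -0.89 on the log2 scale. LXLOC_060233, (chrX:74117715-74327465, minus strand), over FTX, a lncRNA gene of the X-inactivation centre that hosts miR-421 and miR-374b, was called in neither line, at 38.13 and 35.99 FPKM against 38.4 and 40.3 FPKM in HepG2 and 31.5 and 31.7 FPKM against 29.1 and 25.6 FPKM in LM3. LXLOC_059946 (chrX:45749297-45856591, minus strand), over part of MIR222HG and upstream of the miR-221 and miR-222 hairpins, fell in LM3 from 57.0 and 60.4 FPKM to 45.7 and 43.6 FPKM (-0.39, adjusted p = 0.0385), a call that was lost in the rescaled fit, with libraries centred on their median, without limma's trend and robust fitting and without the filter on low values. In HepG2 it stood at 28.5 and 27.2 FPKM against 20.6 and 23.5 FPKM (-0.33, adjusted p = 0.0619). The Ensembl row of MIR222HG, which covers 19.6% of the region, changed by -0.267 in HepG2 and -0.215 in LM3 and was called in neither line. That of LINC02595, which covers 4.19% of it, was called lower in both, at -0.38 and -0.62.

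The test of the difference between the lines' responses called 1 of the 192 regions, where the background over 5035 loci was 0.218%. This was LXLOC_034140 (chr20:53265132-53323540, plus strand), in the zinc finger gene TSHZ2, at 1.06 and 0.95 FPKM against 0.98 and 1.01 FPKM in HepG2 and at 1.88 and 2.0 FPKM against 0.57 and 0.51 FPKM in LM3. The HepG2 groups overlapped and the LM3 groups were far apart. The response in LM3 was lower by 1.22 on the log2 scale (adjusted p = 0.0234), and the call was lost when any 1 of the 8 libraries was left out (-1.27 to -1.17) and when overlapping loci were left out. It was also lost in a fit with the replicate number as a block. At an unadjusted p under 0.05 there were 44 regions, and the count over all loci at that level was not worked out. LXLOC_000724 (-0.73, adjusted p = 0.0788), LXLOC_041356 in the lncRNA AC108062.1 (-0.76, adjusted p = 0.0807) and LXLOC_006122 in LRMDA (-0.73, adjusted p = 0.14) were the next toward a deeper fall in LM3. LXLOC_041356 stood at 1.82 and 1.66 FPKM against 1.51 and 1.48 FPKM in HepG2 and 4.10 and 4.22 FPKM against 2.03 and 1.88 FPKM in LM3.

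In the other direction, the smallest p was that of the region called in opposite directions. LXLOC_007487 (chr10:95732976-96090239, minus strand) covers nearly all of ENTPD1-AS1, the antisense partner of the ectonucleotidase gene ENTPD1. It fell in HepG2 from 3.33 and 3.47 FPKM to 2.52 and 2.44 FPKM (-0.39, SE 0.0794, adjusted p = 0.0316) and rose in LM3 from 2.46 and 2.02 FPKM to 3.68 and 3.57 FPKM (0.60, SE 0.114, adjusted p = 0.03). Both calls were lost without the filter on low values, and the HepG2 call also in the fit with the replicate number as a block. The difference of 0.98 did not pass the adjusted test (adjusted p = 0.0689). The Ensembl row of ENTPD1-AS1, at 9.74 FPKM in HepG2 and 8.46 FPKM in LM3 with vehicle (means of 2), changed by 0.12 and 0.30 and was called in neither line. LXLOC_054641 (0.76, adjusted p = 0.0853), LXLOC_006270 at the start of the Polycomb gene PCGF5 (0.41, adjusted p = 0.203) and LXLOC_010622 in DLG2 (0.55, adjusted p = 0.211) followed. LXLOC_006270 fell in HepG2 from 13.8 and 14.3 FPKM to 9.87 and 9.40 FPKM and stood at 9.69 and 9.58 FPKM against 8.92 and 8.85 FPKM in LM3. LXLOC_010622 rose in LM3 from 1.52 and 1.69 FPKM to 3.38 and 3.45 FPKM. LXLOC_058679 begins near the start of ZNF674-AS1 and has 46.4% of its span in the coding gene CHST7 of the same strand. It rose in LM3 from 0.35 and 0.22 FPKM to 1.59 and 1.19 FPKM (1.26, limma adjusted p = 0.0147). Its groups overlapped in HepG2, at 0.33 and 0.49 FPKM against 0.76 and 0.49 FPKM. The Ensembl row of ZNF674-AS1, which covers 6.42% of the region, fell in LM3 from a mean of 5.2 FPKM to 3.63 FPKM (-0.46, adjusted p = 0.0382).

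The 5 longest regions were not alike. LXLOC_030060 (chr2:81481706-81850923, plus strand), the longest, shared no base with a coding gene or with a same-strand lncRNA, and was 2.30 and 2.01 FPKM against 2.0 and 1.77 FPKM in HepG2 and 1.78 and 1.80 FPKM against 1.89 and 1.65 FPKM in LM3. It was called in neither line (adjusted p = 0.341 and 0.925). LXLOC_007487 and LXLOC_053351, given above, were the next in length. LXLOC_058417 (chrX:7927298-8231386, plus strand), which holds miR-651, fell in LM3 from 2.65 and 2.46 FPKM to 1.2 and 1.3 FPKM (-0.80, adjusted p = 0.0119) and was 0.98 and 1.31 FPKM against 0.78 and 0.70 FPKM in HepG2 (-0.40, adjusted p = 0.0945). LXLOC_051498 (chr7:72994396-73286442, minus strand) was called in neither line, at 8.43 and 6.70 FPKM against 10.8 and 10.4 FPKM in HepG2 and 19.6 and 20.9 FPKM against 19.01 and 23.53 FPKM in LM3.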

How the data were processed

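Total RNA depleted of ribosomal RNA was sequenced in read pairs, per the labels' protocols, and the authors deposited FPKM in 1 table per line. The submitters' processing notes name Bowtie 0.12.2 as well as hg19 and mm8, and give no role for any of these. Of 9585 Ensembl IDs with values, 8463 were found in GENCODE release 29, 99.88% of them on the same chromosome and 83.87% with the same start, so GRCh38 is used for all positions. No source used here gives the counting tool, its strand setting, the length behind FPKM or how LXLOC loci were defined.

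JQ1 was compared with vehicle within each table in limma 3.58.1 (R 4.3.3, trend and robust fitting) on log2(FPKM + 0.5), over loci that averaged 0.5 FPKM or more in the table, two-sided with Benjamini-Hochberg adjustment over all of them. The difference between lines was fitted over all 8 libraries. The steps were tested on simulated data. Alternatives changed the pseudocount, filter, scaling, fitting, block, libraries and members, and members outside the ribosomal DNA array and alternate sequences were an alternative added after seeing the data.

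Named regions are the 5 longest, the 5 most abundant, the 6 largest called rises and falls per line (groups not overlapping, at least 1 FPKM in the higher group), the 4 smallest p in each direction for the difference, opposite calls, and the 4 largest and smallest LM3 over HepG2 ratios with vehicle. Hosts of microRNAs, FIRRE, CSRP1-AS1 and the regions of the closing observations were picked with their values in view. The members and lists were chosen with earlier results of these data known. Sequences are from RefSeq on GRCh38.p14. Python 3.11.15 with NumPy 2.4.6, pandas 2.3.3 and matplotlib 3.10.9 made the tables and figures.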

Additional observations from a re-analysis of the deposited data

Results flagged for a closer look

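LXLOC_034140 in TSHZ2 is listed because its response to JQ1 differed between the lines by the test of the difference itself. The response in LM3 minus that in HepG2 was -1.22 on the log2 scale (limma, adjusted p = 0.0234). It was the single one of the 192 regions called in this test, and the call was lost with any 1 of the 8 libraries left out, without overlapping loci and in the fit with the replicate number as a block (0 lower). HepG2 changed by -0.009 and LM3 by -1.23, and both LM3 JQ1 libraries, at 0.57 and 0.51 FPKM, were below both LM3 vehicle libraries, at 1.88 and 2.0 FPKM.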

How the results depend on the processing

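No called region changed sign in its line under any alternative fit. A change of filter, of trend and robust fitting, of block or of the loci included leaves a fold change as it was. Such settings could not change a sign. Where the groups do not overlap, a new pseudocount or a left-out library could not change it either. The value without a filter on low values was 13 regions higher in HepG2, 8 higher and 33 lower in LM3, and 2 higher and 2 lower for the difference. Centring on the median gave a median log2 change of -0.063 in LM3 and 1 higher for the difference, quantile normalization a median of -0.074 in LM3, and rescaling outside ribosomal RNA and mitochondrial loci -0.094 in LM3, with -0.006 and 1 higher for the difference. The cause was not tested, and the shares of all loci called were worked out for the main fits only.

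Fewer or more regions entered the next settings by construction. Without overlapping loci (71 regions) 5 were higher and 19 lower in HepG2, 5 higher and 23 lower in LM3 (median -0.196), and 0 lower for the difference. At a span of at least 100000 bp (63 regions) 7 were higher and 18 lower in HepG2 (median -0.154), and 5 and 22 in LM3 (median -0.246). At 25000 bp (460 regions) these were 54 and 90 in HepG2 and 36 and 109 in LM3. Regions that share no base with a same-strand coding gene gave 13 higher and 25 lower in HepG2 and 29 lower in LM3 (median -0.072).

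Leaving out 1 library gave 0 to 11 higher and 0 to 21 lower in HepG2, 0 and 0 in LM3, and 0 for the difference, each from limma with the lone library assumed to vary like the other group. The uncalled change of LXLOC_035052 in HepG2 ranged from -0.48, without vehicle replicate 2, to 0.569, without vehicle replicate 1. Same-numbered libraries deviated together with r = -0.035 in HepG2 and 0.135 in LM3, so the numbers are not shown to pair them. The replicate block gave 20 higher and 36 lower in HepG2, 15 and 41 in LM3, and 0 lower for the difference. With it the calls of LXLOC_001560, LXLOC_006122, LXLOC_007487 and LXLOC_019709 in HepG2, of LXLOC_047420, LXLOC_057621 and LXLOC_059946 in LM3 and of LXLOC_034140 for the difference were lost, and that of LXLOC_006122 in HepG2 also without the filter. Outside the ribosomal DNA array and alternate or unplaced sequences, an alternative chosen after seeing the data, 16 were higher and 45 lower in HepG2 and 14 and 54 in LM3. Values in FPKM keep no depth, so low regions cannot be given a counting error.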

Other observations

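Of the 7 regions on patch, alternate or unplaced sequences outside the annotation, 3 were called higher and 0 lower in HepG2, and 1 higher and 0 lower in LM3 (limma; 4 and 5 at an unadjusted p under 0.05). The background was 10.8% higher and 14.2% lower in HepG2 and 7.92% and 15.4% in LM3. At an unadjusted p under 0.05 it was 2376 of 5906 loci in HepG2 and 2607 of 6474 in LM3. The 3 regions called higher in HepG2 lie on an alternate sequence of chromosome 15, and 2 of them, LXLOC_057620 and LXLOC_057621, overlap. LXLOC_057621 rose from 3.07 and 2.68 FPKM to 4.37 and 4.95 FPKM in HepG2 and from 3.66 and 3.51 FPKM to 5.06 and 5.0 FPKM in LM3, calls that were lost without the filter on low values. LXLOC_019688 on the primary sequence of chromosome 15 (chr15:82463634-82513950, minus strand) rose too, from 2.03 and 2.07 FPKM to 3.54 and 3.75 FPKM in HepG2 and from 3.07 and 2.98 FPKM to 5.47 and 5.30 FPKM in LM3. Reads of duplicated sequences can be placed on more than one copy, and their part in these values was not tested.

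Of the 15 regions on the X chromosome, 3 (20.0%) were lower and 0 higher in HepG2 in limma. In LM3, 5 (33.3%) were lower and 1 (6.67%) higher, beside the same background. At an unadjusted p under 0.05 there were 7 and 9, beside 2376 of 5906 and 2607 of 6474 loci tested. On chromosome 1, LXLOC_000908 and LXLOC_000910, which overlap each other, fell in both lines, LXLOC_000908 from 2.47 and 2.40 FPKM to 1.31 and 1.23 FPKM in HepG2 and from 6.26 and 6.22 FPKM to 2.42 and 2.46 FPKM in LM3. LXLOC_047714 (chr6:1260394-1316872, minus strand), which spans the forkhead gene FOXQ1 of the other strand, went from 1.26 and 1.24 FPKM to 0.36 and 0.37 FPKM in HepG2 and from 1.08 and 1.07 FPKM to 0.34 and 0.33 FPKM in LM3, log2 changes of -1.02 and -0.92. LXLOC_040654 (chr4:24321415-24387763, plus strand) had no annotated coding gene or lncRNA and rose from 6.94 and 6.24 FPKM to 12.3 and 13.0 FPKM in HepG2 and from 3.26 and 3.45 FPKM to 6.04 and 5.58 FPKM in LM3.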
